A study of Homo sapiens with 18 samples.

Results

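The 43 genes described here encode the enzymes and transporters of glycolysis, the hypoxia-inducible factors (HIF) that control many of them, and established HIF targets. They were chosen by name, as glycolytic enzymes, glucose and lactate transporters, HIF subunits, HIF prolyl hydroxylases and HIF target genes, and all 43 were found among the 57448 gene rows of the count table. Their levels were followed in MDA-MB-231, a human triple negative breast cancer cell line, in 6 groups of 3 libraries each. The study asked how loss of GPS2, a subunit of a corepressor complex that also restrains ubiquitination by UBC13, bears on PI3K/AKT signaling.

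MB231-WT cells were the parental line, for which no transduction is described in the sources used here. MB231-GPS2KO1 and KO2 were pools of cells, not clones, that received Cas9 and different sets of guide RNAs against GPS2 from lentiviral vectors and were selected with puromycin. MB231-myrAKT cells carried a retroviral, myristoylated and thereby membrane-bound and constitutively active AKT1. KO1+MK and KO2+MK were the same pools after 10 µM MK2206, an allosteric AKT inhibitor, for 4 h, and treated WT or myrAKT cells are not analysed here. All were kept in DMEM with glucose, glutamine and fetal bovine serum. With no vector control among the groups, the effects of GPS2 loss or of AKT1 and those of transduction and selection cannot be told apart.

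Glycolysis splits glucose into pyruvate, and cancer cells often convert much of that pyruvate to lactate even when oxygen is present. HIF is a dimer of an oxygen-labile alpha subunit and ARNT, which binds short DNA elements at genes of glucose use, angiogenesis and pH control. Signaling through AKT promotes glucose uptake and glycolysis, and, through mTOR, the synthesis of HIF1A protein.

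The libraries held from 23419198 to 39319910 counted reads. The MK2206-treated libraries were the shallowest, with 23419198 to 29939536 reads, below the 30287210 to 39319910 reads of the untreated ones, and the part of depth in the MK2206 results was not tested. Levels are given as CPM, counts scaled to a common library size after TMM normalization of the 18 libraries. A gene was called at an edgeR adjusted p of at most 0.001 over the 15587 genes tested, and log2 fold changes carry their standard error (SE). The labels do not say that replicates were separate cultures, so these p-values measure the spread between the libraries, which may be technical. In bulk RNA, fewer cells that express a gene and less RNA per cell cannot be told apart.

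GPS2 RNA was not lower in the libraries labelled as knockout. It was at 4.40, 4.89 and 4.42 CPM in the WT libraries, 4.53, 4.46 and 4.51 CPM in KO1, 5.90, 6.09 and 6.14 CPM in KO2 and 6.02, 6.13 and 4.51 CPM in myrAKT, and at 5.12, 4.78 and 5.84 CPM in KO1+MK and 6.16, 5.91 and 5.59 CPM in KO2+MK. The KO1 values lay within the WT range and the KO2 values lay above it, with a log2 fold change of 0.19 ± 0.133 (SE, edgeR adjusted p = 0.246) for the pools together and 0.40 ± 0.0940 (SE, edgeR adjusted p = 0.00221) for KO2. Edits at a guide's target need not lower the RNA of a gene, and a gene count does not measure the protein. The study used a western blot for GPS2 and genomic PCR to check the knockout in these pools, and neither is analysed here. Of the GPS2 exon bases, 44.7% also lie in exons of ENSG00000261915, a gene on the same strand with a mean of 2.11 counts per library beside 176 for GPS2, and 7.80% in exons of EIF5A, an abundant gene on the opposite strand. The rule for reads shared by genes is not given in the sources used here, so the GPS2 count is uncertain. KO1 and KO2 below therefore mean the libraries labelled so. AKT1 was at 135, 134 and 136 CPM in the WT libraries, 145, 139 and 141 CPM in KO1, 136, 126 and 137 CPM in KO2 and 242, 232 and 218 CPM in myrAKT. Its counts set the myrAKT libraries apart from all others, with a log2 fold change of 0.77 ± 0.0443 (SE, edgeR adjusted p = 4.27e-09) against WT.

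Of the markers of the line, several differed between groups. VIM, CD44, EGFR and AXL, known to be high in it, were at 401 CPM or more in every library, while CDH1 stayed at or below 0.128 CPM, PGR at or below 0.137, ESR1 at or below 1.38, GATA3 at or below 4.73 and EPCAM at or below 12.3. ERBB2 RNA was at 79.9 to 93.9 CPM and so was not absent. Of 5 markers of other cells (PTPRC, PECAM1, CDH5, DES and RBFOX3), the summed mean level was 8.42 CPM in WT, 3.18 in KO1, 6.20 in KO2, 22.4 in myrAKT, 3.57 in KO1+MK and 5.16 in KO2+MK. The high sum in myrAKT came from PECAM1 at 19.9, 21.0 and 22.5 CPM, against 3.38, 3.71 and 3.66 CPM in WT. The other endothelial marker, CDH5, was at 0.362 CPM in myrAKT and 3.07 CPM in WT, and PTPRC stayed at or below 0.147 CPM. In myrAKT against WT, EPCAM (log2 fold change -1.90, edgeR adjusted p = 7.54e-10), CD44 (log2 fold change -0.50, edgeR adjusted p = 7.54e-07) and EGFR (log2 fold change -0.51, edgeR adjusted p = 1.64e-06) were called lower, and VIM (log2 fold change 0.35, edgeR adjusted p = 4.05e-05) and AXL (log2 fold change 0.39, edgeR adjusted p = 1.21e-05) higher. PECAM1 was called higher there (log2 fold change 2.55, edgeR adjusted p = 2.41e-11), and CDH5 (log2 fold change -3.09, edgeR adjusted p = 1.27e-07) and RBFOX3 (log2 fold change -1.87, edgeR adjusted p = 2.77e-04) lower. In KO against WT, EPCAM (log2 fold change -0.41, edgeR adjusted p = 4.94e-04) and CDH5 (log2 fold change -1.98, edgeR adjusted p = 1.92e-04) were called lower, and in MK2206 against untreated GATA3 was (log2 fold change -0.82, edgeR adjusted p = 2.27e-04). The part of these markers and of other cells in the results was not tested.

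In WT cells the levels of the 43 genes spanned a wide range once divided by exon length. GAPDH stood at 725 ± 47.6 CPM per kilobase (SD, n = 3), ENO1 at 359 ± 24.5 and LDHA at 261 ± 22.3. TPI1, ALDOA, PKM and LDHB followed between 183 and 217, and the spreads of ALDOA (194 ± 15.3) and PKM (191 ± 13.6) overlapped. HIF1A, at 159 ± 4.62, was above EPAS1 at 19.0 ± 0.795 and ARNT at 6.04 ± 0.210 on this scale. SLC2A1 was at 40.8 ± 1.44 and SLC2A3 at 10.3 ± 1.00. HK1 (56.5 ± 0.700) and HK2 (54.6 ± 1.73) stood within their spreads of each other. Near the bottom were SLC16A1 at 0.824 ± 0.128 and CA9 at 0.168 ± 0.0299.

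**Figure D1:**
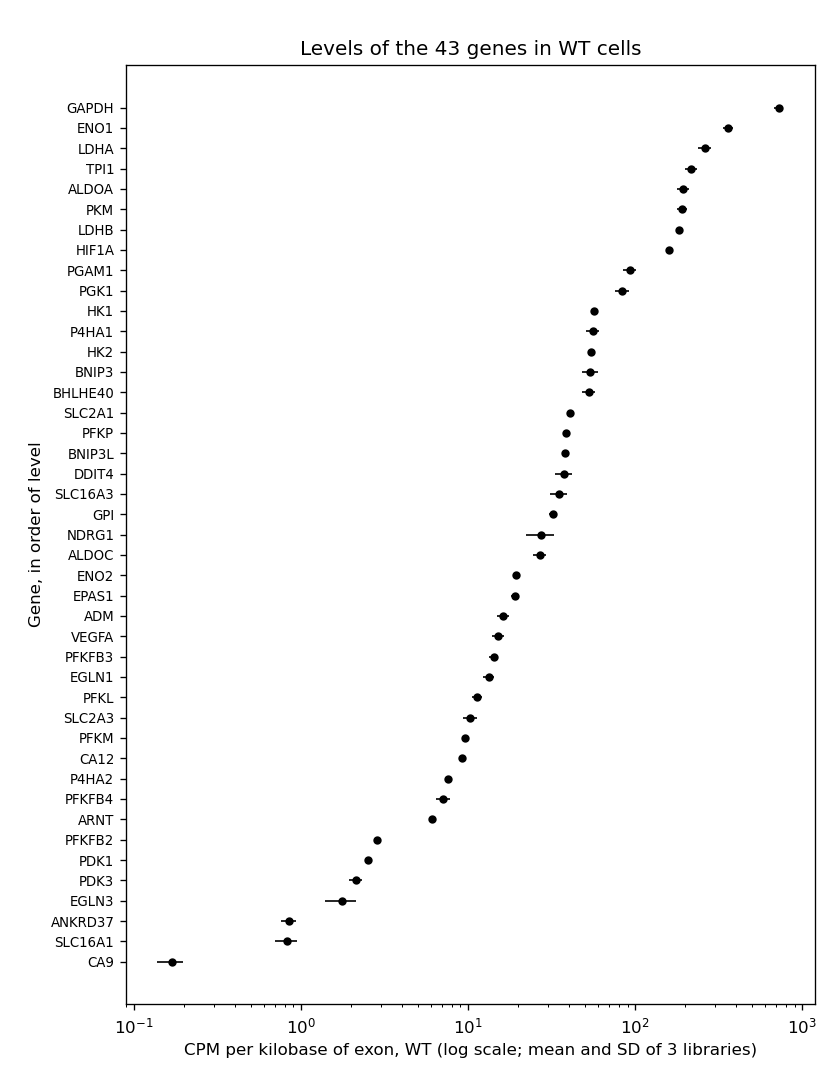
Levels of the 43 genes in WT cells, as CPM per kilobase of exon on a log axis, with the mean and SD of 3 libraries. The order runs from GAPDH at 725 down to CA9 at 0.168 CPM per kilobase.

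In KO against WT, 7 of the 43 genes were called higher, 16.3% beside 15.5% of all genes tested. Another 13 were called lower, 30.2% beside 16.6%. The share of higher calls was near that of all genes. The median log2 fold change was -0.077 over the 43 genes and -0.0029 over all genes tested. Those called higher were GPI, GAPDH, PGAM1, ENO1, PKM, LDHA and ADM, and 6 of those called lower were among the 12 HIF targets outside glycolysis. EPCAM and CDH5 were lower in the same comparison, as given above, and their part in these counts was not tested. The count of higher calls was 12 with DESeq2 (27.9% beside 20.7% of all genes), and 1 when a fold change of at least 1.5 was also required (2.33% beside 4.07%).

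In myrAKT against WT, 14 of 42 genes were called higher, 33.3% beside 12.7% of all genes tested, and 5 lower, 11.9% beside 17.3%. CA9 is left out here, since it passed the filter of 1 CPM in 3 libraries through the myrAKT libraries alone and so had to differ. SLC16A1 reached 1 CPM in 15 libraries and the other 41 genes in all 18. The median log2 fold change was 0.12 over the 42 genes and 0.016 over all genes tested. With a fold change of at least 1.5 as well, only P4HA1 was higher (2.38% beside 4.94% of all genes) and only HK2 lower (2.38% beside 8.83%). Without myrAKT replicate 2, 8 of the 42 were higher (19.0% beside 9.62%), and without WT replicate 3, 9 (21.4% beside 9.07%). EPCAM, CD44, EGFR, CDH5 and RBFOX3 were lower and VIM, AXL and PECAM1 higher in the same comparison, as given above, and their part in these counts was not tested.

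In MK2206 against untreated, 5 genes were called higher, 11.6% beside 12.8% of all genes tested, and 4 lower, 9.30% beside 8.75%. Both shares were near those of all genes. The untreated pool libraries here are also those of KO against WT, so the changes in these comparisons are not independent. The medians were -0.057 over the 43 genes and -0.0031 over all genes tested. Scaling moved this balance, with 55.6% of the calls being higher ones under TMM and 27.3% under upper-quartile normalization (3 higher, 8 lower). Over all genes tested the share of higher calls went from 59.3% to 48.3% between the same 2 scalings. With the pool as a covariate there were 9 higher (20.9% beside 19.7% of all genes) and 10 lower (23.3% beside 16.7%). Without KO1 replicate 1 or 2, KO1+MK replicate 1 or 2, or KO2+MK replicate 2 or 3, 3 were higher (6.98% beside 10.2% to 11.4%), and without KO1+MK replicate 2, 2 were lower (4.65% beside 8.19%).

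**Figure D2:**
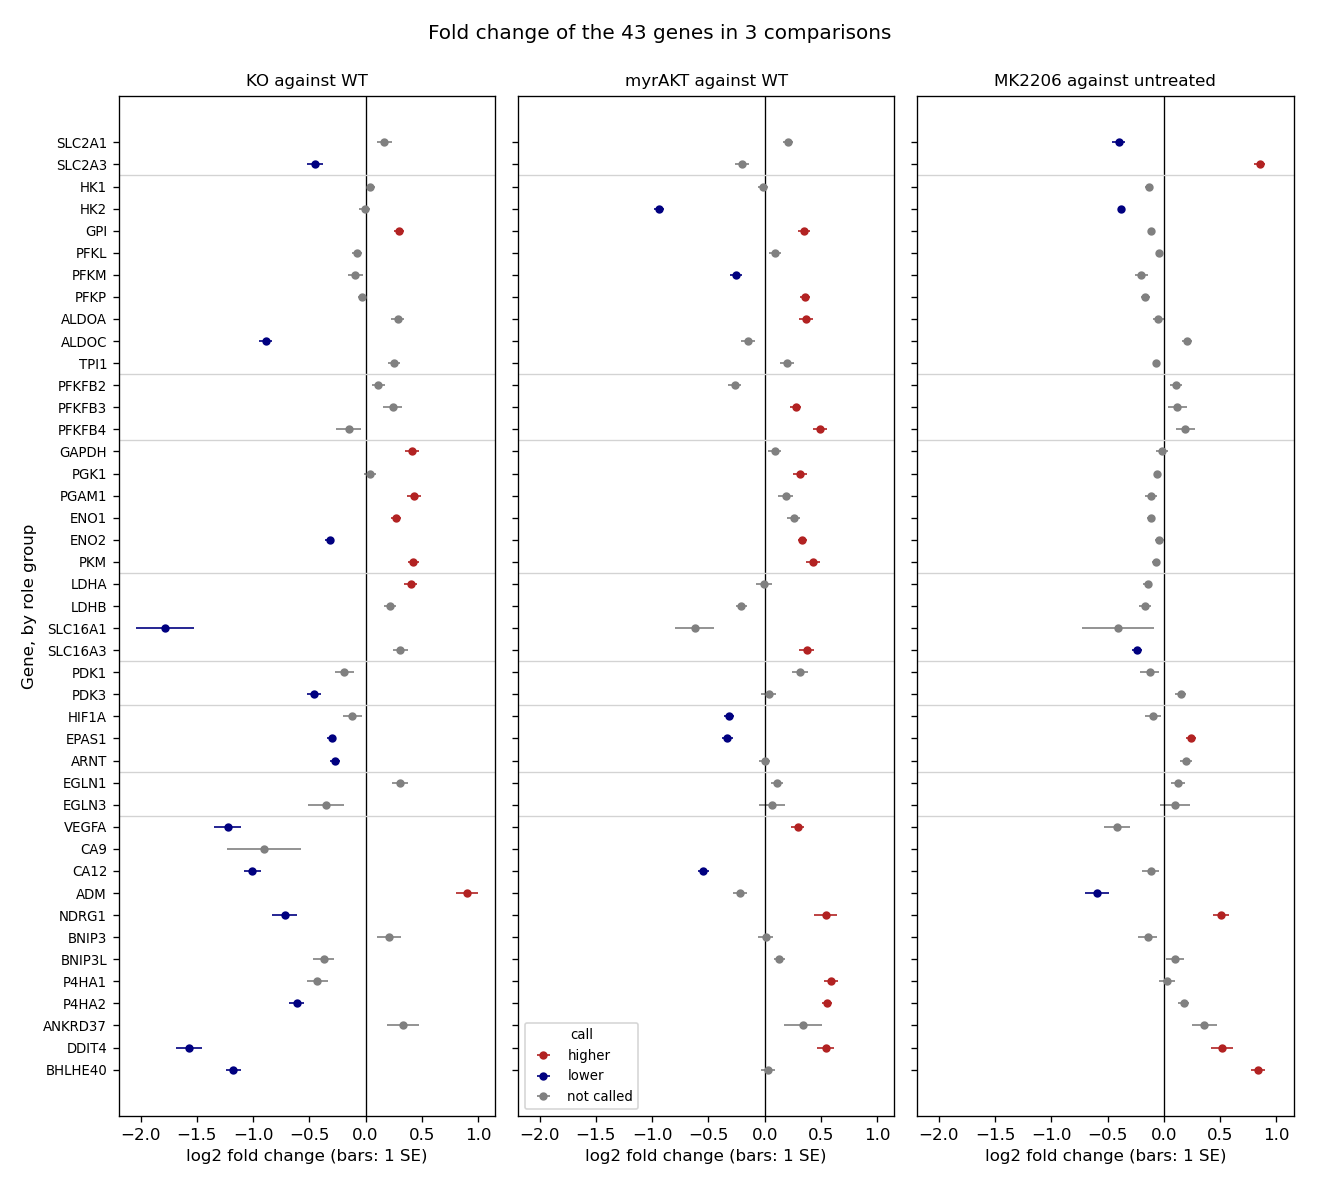
Log2 fold change of the 43 genes in KO against WT, myrAKT against WT and MK2206 against untreated, with bars of 1 SE and colour for the call at an edgeR adjusted p of at most 0.001, and CA9 left out of the myrAKT panel, where it had to differ, and of the MK2206 panel for its low counts. Of the HIF targets furthest left in the KO panel, DDIT4 and BHLHE40 lie to the right of 0 in the MK2206 panel, at 0.52 and 0.84, and VEGFA and CA12 to its left, at -0.42 and -0.12 without a call. The KO and MK2206 panels share the untreated pool libraries.

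The glucose transporters SLC2A1 and SLC2A3, which carry glucose across the plasma membrane, moved in opposite directions under MK2206. SLC2A1 was at 259, 273 and 278 CPM in the WT libraries, 284, 276 and 297 CPM in KO1, 334, 318 and 334 CPM in KO2 and 325, 312 and 300.1 CPM in myrAKT. WT and KO1 overlapped, and KO2 and myrAKT lay above WT. The log2 fold change was 0.17 ± 0.0639 (SE, edgeR adjusted p = 0.0398) for KO and 0.20 ± 0.0465 (SE, edgeR adjusted p = 0.00191) for myrAKT, and neither was called. Taken by pool, SLC2A1 was called higher than WT in KO2 and not in KO1. After MK2206 it was at 203, 224 and 227 CPM in KO1+MK and 255, 236 and 231 CPM in KO2+MK, below all 6 untreated pool libraries, with a log2 fold change of -0.40 ± 0.0595 (SE, edgeR adjusted p = 7.93e-05). SLC2A3 was at 67.4, 75.6 and 81.8 CPM in the WT libraries, 56.4, 55.9 and 62.2 CPM in KO1, 54.8, 50.3 and 54.2 CPM in KO2 and 64.5, 67.2 and 64.6 CPM in myrAKT. Every pool library was below every WT library (log2 fold change -0.45, SE 0.0684, edgeR adjusted p = 1.58e-04), and the myrAKT libraries also lay below WT without a call (log2 fold change -0.20, SE 0.0620, edgeR adjusted p = 0.0128). The KO call was lost when WT replicate 2 or WT replicate 3 was left out (log2 fold change -0.42 to -0.36, edgeR adjusted p = 0.00156 to 0.00175). With MK2206 it reached 95.3, 102 and 104 CPM in KO1+MK and 89.5, 98.4 and 104 CPM in KO2+MK, above all untreated pool and WT libraries, with a log2 fold change of 0.85 ± 0.0487 (SE, edgeR adjusted p = 2.71e-08).

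Of the 9 genes of the hexose phosphate steps, 1 was called higher (GPI) and 1 lower (ALDOC) in KO against WT, 11.1% each beside 15.5% and 16.6% of all genes tested, so that neither share was above that of all genes. In myrAKT against WT 3 were called higher (33.3% beside 12.7%) and 2 lower (22.2% beside 17.3%). HK2, an inducible hexokinase that commits glucose to the pathway, was at 335, 317 and 317 CPM in the WT libraries, 336, 326 and 354 CPM in KO1, 319, 309 and 308 CPM in KO2 and 166, 175 and 166 CPM in myrAKT. WT and the pools overlapped, while the myrAKT libraries stood far below them. The log2 fold change was -0.94 ± 0.0437 (SE, edgeR adjusted p = 5.01e-10) for myrAKT, the largest fall of the 43 genes there, and -0.0070 ± 0.0473 (SE, edgeR adjusted p = 0.909) for KO. After MK2206 HK2 was at 242, 254 and 251 CPM in KO1+MK and 241, 245 and 249 CPM in KO2+MK, below every untreated pool library, with a log2 fold change of -0.38 ± 0.0342 (SE, edgeR adjusted p = 9.78e-07). HK1, the constitutive hexokinase, was not called in any of these comparisons.

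ALDOC, a fructose bisphosphate aldolase, was at 62.9, 73.2 and 74.0 CPM in WT and between 35.7 and 40.3 CPM in the 6 pool libraries, which did not overlap WT (log2 fold change -0.89, SE 0.0567, edgeR adjusted p = 3.50e-07). GPI, the glucose phosphate isomerase, had a log2 fold change of 0.30 ± 0.0423 (SE, edgeR adjusted p = 9.61e-05) in KO and 0.35 ± 0.0527 (SE, edgeR adjusted p = 6.46e-05) in myrAKT. ALDOA (log2 fold change 0.37, SE 0.0617, edgeR adjusted p = 1.60e-04) and the phosphofructokinase PFKP (log2 fold change 0.36, SE 0.0458, edgeR adjusted p = 1.45e-05) were also called higher in myrAKT, the ALDOA call being lost when myrAKT replicate 2 was left out (log2 fold change 0.37, edgeR adjusted p = 0.00118). PFKM, another phosphofructokinase, was at 72.0, 68.0 and 67.7 CPM in the WT libraries, 69.4, 73.3 and 69.1 CPM in KO1, 61.6, 59.7 and 62.1 CPM in KO2 and 60.5, 61.5 and 53.1 CPM in myrAKT. The myrAKT libraries lay below WT, at the edge of the call (log2 fold change -0.25, SE 0.0530, edgeR adjusted p = 9.88e-04), and the call was lost under RLE (edgeR adjusted p = 0.00109), upper-quartile (edgeR adjusted p = 0.00366) and total scaling (edgeR adjusted p = 0.00491) and when WT replicate 1, WT replicate 2, WT replicate 3, myrAKT replicate 1, myrAKT replicate 2 or myrAKT replicate 3 was left out (log2 fold change -0.30 to -0.20, edgeR adjusted p = 0.00131 to 0.00437). PFKL and TPI1 were called in none of the 3 comparisons, and HK2 was the 1 member of this group called under MK2206 over both pools, 11.1% beside 8.75% of all genes. HK1 and GPI also lay lower, and ALDOC higher, in every treated than in every untreated pool library. By pool, MK2206 gave 1 higher (11.1% beside 10.9%) and 2 lower (22.2% beside 8.26%) in KO1. In KO2 it gave 0 higher (0% beside 13.1%) and 1 lower (11.1% beside 8.78%).

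The PFKFB enzymes make and break the allosteric activator of phosphofructokinase. PFKFB3 was at 81.1, 91.0 and 88.3 CPM in the WT libraries, 93.4, 88.4 and 105 CPM in KO1, 116, 110.1 and 111 CPM in KO2 and 110.2, 103 and 104 CPM in myrAKT, and at 103, 95.1 and 101 CPM in KO1+MK and 113, 124 and 131 CPM in KO2+MK. WT and KO1 overlapped, KO2 and myrAKT lay above WT, and treated and untreated pools overlapped. The log2 fold change was 0.27 ± 0.0504 (SE, edgeR adjusted p = 3.65e-04) for myrAKT, 0.24 ± 0.0811 (SE, edgeR adjusted p = 0.0237) for KO and 0.12 ± 0.0861 (SE, edgeR adjusted p = 0.276) for MK2206. The myrAKT call was lost with no filter on low counts (edgeR adjusted p = 0.00417) and when WT replicate 1, WT replicate 3, myrAKT replicate 1 or myrAKT replicate 2 was left out (log2 fold change 0.22 to 0.29, edgeR adjusted p = 0.00127 to 0.00194). PFKFB4 was called higher in myrAKT (log2 fold change 0.49, SE 0.0631, edgeR adjusted p = 1.47e-05), and PFKFB2 was called in none of the 3 comparisons.

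Of the 6 genes from triose phosphate to pyruvate, 4 were called higher in KO against WT and 1 lower (ENO2), beside 15.5% and 16.6% of all genes tested, and the median log2 fold change was 0.34. GAPDH, which oxidizes glyceraldehyde phosphate, was at 1605, 1808 and 1796 CPM in the WT libraries, 2459, 2385 and 2563 CPM in KO1, 2237, 2109 and 2280.4 CPM in KO2 and 1961, 1837 and 1766 CPM in myrAKT. PGAM1, a phosphoglycerate mutase, was at 215, 255 and 237 CPM in the WT libraries, 305, 299.7 and 322 CPM in KO1, 334, 326 and 348 CPM in KO2 and 295, 257 and 258 CPM in myrAKT. PKM, the pyruvate kinase of most tissues, was at 1507, 1736 and 1659 CPM in the WT libraries, 2234, 2125 and 2314 CPM in KO1, 2271, 2114 and 2279.7 CPM in KO2 and 2343, 2154 and 2138 CPM in myrAKT. For each of these genes every KO library lay above every WT library. The log2 fold changes for KO were 0.41 ± 0.0637 (SE, edgeR adjusted p = 1.80e-04) for GAPDH, 0.43 ± 0.0598 (SE, edgeR adjusted p = 7.82e-05) for PGAM1 and 0.42 ± 0.0501 (SE, edgeR adjusted p = 2.31e-05) for PKM. The GAPDH call was lost when WT replicate 1 was left out (log2 fold change 0.36, edgeR adjusted p = 0.001004).

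ENO1, the main enolase, was called higher in KO at 0.27 ± 0.0469 (SE, edgeR adjusted p = 4.18e-04), a call that was lost when WT replicate 1, WT replicate 3, KO1 replicate 3, KO2 replicate 1 or KO2 replicate 3 was left out (log2 fold change 0.22 to 0.31, edgeR adjusted p = 0.00109 to 0.00139). ENO2, the neuronal type of enolase, was called lower in KO (log2 fold change -0.32, SE 0.0416, edgeR adjusted p = 4.93e-05) and higher in myrAKT (log2 fold change 0.33, SE 0.0414, edgeR adjusted p = 9.81e-06). PKM was called higher in myrAKT as well (log2 fold change 0.43, SE 0.0612, edgeR adjusted p = 3.71e-05), as was PGK1, a kinase that yields ATP (log2 fold change 0.31, SE 0.0635, edgeR adjusted p = 8.09e-04), which was not called in KO (log2 fold change 0.039, SE 0.0529, edgeR adjusted p = 0.545). The PGK1 call was lost when WT replicate 1, WT replicate 3, myrAKT replicate 1, myrAKT replicate 2 or myrAKT replicate 3 was left out (log2 fold change 0.23 to 0.35, edgeR adjusted p = 0.00108 to 0.00376). Under MK2206 GAPDH was at 2213, 2492 and 2443 CPM in KO1+MK and 2286, 2097 and 2121 CPM in KO2+MK, PGAM1 at 261, 288 and 283 CPM in KO1+MK and 321, 298 and 309 CPM in KO2+MK and PKM at 1914, 2125 and 2145 CPM in KO1+MK and 2193, 2041 and 2101 CPM in KO2+MK. Between -0.11 and -0.018 was the range of the log2 fold changes of the 6 genes after the drug, without a call. With 12.8% of all genes called higher and 8.75% lower there, this is near the share of all genes. For ENO1 and PGK1 every treated library lay below every untreated pool library. PGAM1 lay lower in this way within each pool and ENO2 within KO2, while GAPDH and PKM overlapped in both pools. Reads of GAPDH may be split with its 65 annotated pseudogenes, which held 1.00% of the joint counts, and those of TPI1 with pseudogenes at 3.73%.

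LDHA converts pyruvate to lactate. It was at 1429.6, 1695 and 1601 CPM in the WT libraries, 2024, 1954 and 2189 CPM in KO1, 2194, 2080.3 and 2190.2 CPM in KO2 and 1696, 1477 and 1553 CPM in myrAKT, and at 1749, 1873 and 1872 CPM in KO1+MK and 1981, 1892 and 1897 CPM in KO2+MK. The pools lay above WT without overlap (log2 fold change 0.40, SE 0.0581, edgeR adjusted p = 1.11e-04), whereas myrAKT overlapped WT (log2 fold change -0.0064, SE 0.0682, edgeR adjusted p = 0.945). Over both pools treated and untreated libraries overlapped, and the log2 fold change under MK2206 was -0.14 ± 0.0381 (SE, edgeR adjusted p = 0.00652). Within each pool the treated libraries lay below the untreated ones, without a call in KO1 (log2 fold change -0.14, SE 0.0454, edgeR adjusted p = 0.0212) or KO2 (log2 fold change -0.15, SE 0.0368, edgeR adjusted p = 0.00462). LDHB was called in none of the 3 comparisons. Its untreated pool libraries all lay above WT and its myrAKT libraries all below WT. Within each pool its treated libraries lay below the untreated ones. LDHA pseudogenes held 2.23% of the joint counts.

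Lactate leaves and enters cells through the carriers SLC16A3 and SLC16A1. SLC16A3, the main lactate exporter of glycolytic cells, was at 283, 354 and 332 CPM in the WT libraries, 394, 368 and 404 CPM in KO1, 428, 409 and 431 CPM in KO2 and 438, 414 and 409 CPM in myrAKT. It was called higher in myrAKT (log2 fold change 0.37, SE 0.0687, edgeR adjusted p = 3.69e-04) and not in KO (log2 fold change 0.31, SE 0.0684, edgeR adjusted p = 0.00216), and the myrAKT call was lost when WT replicate 3, myrAKT replicate 1 or myrAKT replicate 2 was left out (log2 fold change 0.34 to 0.40, edgeR adjusted p = 0.00150 to 0.00218). With MK2206 it was at 312, 334 and 340.4 CPM in KO1+MK and 360.3, 343 and 344 CPM in KO2+MK, below each untreated pool library, and had a log2 fold change of -0.24 ± 0.0423 (SE, edgeR adjusted p = 3.70e-04), a call that was lost when KO2 replicate 1, KO2 replicate 2, KO2 replicate 3 or KO1+MK replicate 2 was left out (log2 fold change -0.24 to -0.22, edgeR adjusted p = 0.001003 to 0.00128). SLC16A1, which moves lactate in both directions, was low throughout, at 6.05, 5.22 and 4.42 CPM in the WT libraries, 1.66, 2.76 and 1.14 CPM in KO1, 1.06, 1.52 and 1.04 CPM in KO2 and 2.56, 4.20 and 3.45 CPM in myrAKT, and at 1.87, 1.45 and 1.44 CPM in KO1+MK and 0.942, 0.540 and 0.637 CPM in KO2+MK. All 6 untreated pool libraries were below WT, KO1 replicate 2 being the highest of them. The log2 fold change of SLC16A1 was -1.79 ± 0.256 (SE, edgeR adjusted p = 1.01e-04) for KO, and the call was lost when WT replicate 1 was left out (log2 fold change -1.66, edgeR adjusted p = 0.00110). The pyruvate dehydrogenase kinases PDK1 and PDK3, which hold pyruvate back from the mitochondrial cycle, gave a single call in the 3 main comparisons, PDK3 lower in KO (log2 fold change -0.46, SE 0.0583, edgeR adjusted p = 4.08e-05). By pool, PDK3 was called lower in both KO1 and KO2 against WT, PDK1 was called lower in KO1 against WT (log2 fold change -0.33, SE 0.0463, edgeR adjusted p = 1.68e-05) and lower in KO1 than in KO2 (log2 fold change -0.29, SE 0.0567, edgeR adjusted p = 8.10e-04), and PDK3 higher with MK2206 in KO1 (log2 fold change 0.28, SE 0.0492, edgeR adjusted p = 4.91e-04).

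HIF1A encodes the alpha subunit whose protein is destroyed when oxygen is present, so that its RNA does not measure its activity. It was at 818, 794 and 841 CPM in the WT libraries, 825, 867 and 834 CPM in KO1, 706, 664 and 678 CPM in KO2 and 677, 658 and 643 CPM in myrAKT, and at 716, 767 and 767 CPM in KO1+MK and 656, 654 and 655 CPM in KO2+MK. KO1 overlapped WT, while KO2 and myrAKT lay below it. The log2 fold change was -0.32 ± 0.0463 (SE, edgeR adjusted p = 4.68e-05) for myrAKT, -0.12 ± 0.0852 (SE, edgeR adjusted p = 0.246) for KO and -0.10 ± 0.0716 (SE, edgeR adjusted p = 0.290) for MK2206. Within each pool every treated library lay below every untreated one, without a call in KO1 (log2 fold change -0.14, SE 0.0366, edgeR adjusted p = 0.00657) or KO2 (log2 fold change -0.042, SE 0.0348, edgeR adjusted p = 0.350). EPAS1, the other main alpha subunit, was at 132, 141 and 143 CPM in the WT libraries, 109, 109.9 and 112 CPM in KO1, 123, 112 and 115 CPM in KO2 and 107, 115 and 109 CPM in myrAKT, and at 123, 124 and 126 CPM in KO1+MK and 139, 134 and 146 CPM in KO2+MK. It lay below WT in the pools (log2 fold change -0.30, SE 0.0438, edgeR adjusted p = 1.09e-04) and in myrAKT (log2 fold change -0.33, SE 0.0472, edgeR adjusted p = 3.49e-05), and the call for the pools was lost when WT replicate 2 or WT replicate 3 was left out (log2 fold change -0.27 to -0.26, edgeR adjusted p = 0.00215 to 0.00251). Under MK2206 EPAS1 was called higher (log2 fold change 0.24, SE 0.0469, edgeR adjusted p = 7.79e-04) although KO1+MK overlapped the untreated KO2 libraries, in a fit without a term for the pool. This call was lost under RLE (edgeR adjusted p = 0.00159) and upper-quartile normalization (edgeR adjusted p = 0.00201), with no filter (edgeR adjusted p = 0.00488) and when KO1 replicate 1, KO1 replicate 2, KO1 replicate 3, KO2 replicate 2, KO2 replicate 3, KO1+MK replicate 1, KO1+MK replicate 2, KO2+MK replicate 1, KO2+MK replicate 2 or KO2+MK replicate 3 was left out (log2 fold change 0.20 to 0.25, edgeR adjusted p = 0.00109 to 0.00418). Within each pool every treated EPAS1 library lay above every untreated one. With MK2206 in KO1, 2 of the 3 HIF subunits were called higher, EPAS1 and ARNT (66.7% beside 10.9% of all genes tested). In KO2 there was 1 (33.3% beside 13.1%).

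ARNT, the shared partner, was called lower in KO (log2 fold change -0.27, SE 0.0455, edgeR adjusted p = 3.33e-04) and in neither other comparison, and the call was lost with no filter (edgeR adjusted p = 0.00253) and when WT replicate 2 or WT replicate 3 was left out (log2 fold change -0.24 to -0.23, edgeR adjusted p = 0.00369 to 0.00425). Within each pool every MK2206-treated ARNT library lay above every untreated one, with the call in KO1 given above. The prolyl hydroxylases EGLN1 and EGLN3, which mark HIF alpha subunits for destruction, were called in none of the 3 main comparisons. For EGLN1 the log2 fold change in KO was 0.31 ± 0.0732 (SE, edgeR adjusted p = 0.00353) and for EGLN3 -0.35 ± 0.160 (SE, edgeR adjusted p = 0.0788). In KO2 against WT EGLN1 was called higher (log2 fold change 0.42, SE 0.0507, edgeR adjusted p = 7.67e-06) and EGLN3 lower (log2 fold change -0.60, SE 0.124, edgeR adjusted p = 8.10e-04), and between the pools EGLN1 was lower (log2 fold change -0.22, SE 0.0365, edgeR adjusted p = 1.78e-04) and EGLN3 higher (log2 fold change 0.46, SE 0.0711, edgeR adjusted p = 8.27e-05) in KO1 than in KO2.

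**Figure D3:**
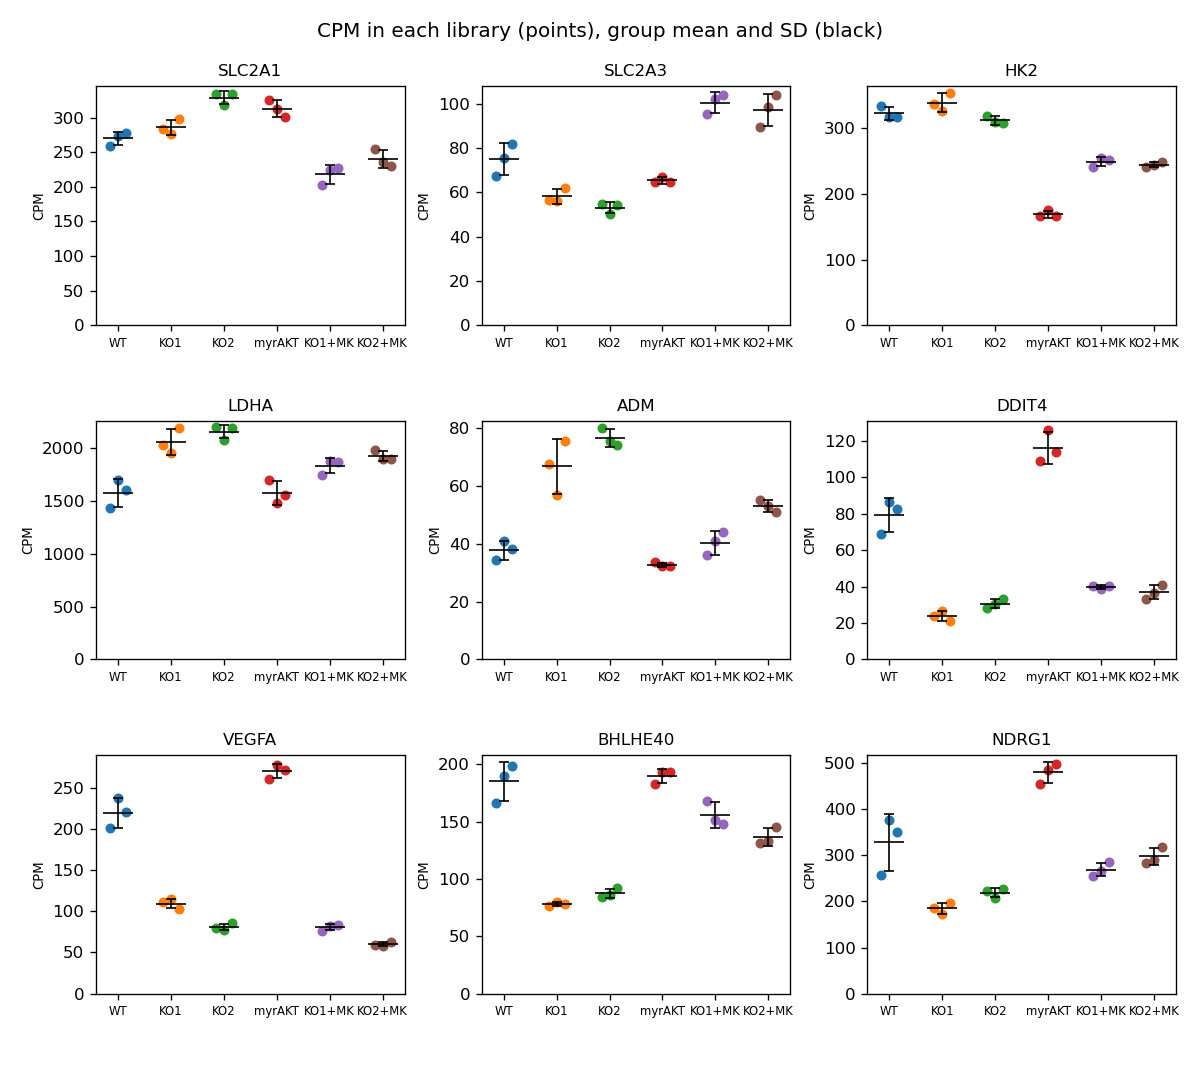
CPM of 9 of the genes in each library (points), with the group mean and SD in black, for the 6 groups of 3 libraries. DDIT4 was at 21.0 to 33.1 CPM in the untreated pools and 109 to 126 CPM in myrAKT, on either side of WT.

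The sequences that follow are the 250 bases before the annotated start of those 7 HIF targets that are given by library below and have 1 start in the table, shown because HIF binds short elements that can lie there. They are from RefSeq (GRCh38.p14), where 37 of the 43 genes were matched (not SLC2A3, PFKFB2, SLC16A1, VEGFA, NDRG1 and BNIP3L). Capitals mark ACGTG and GCGTG, the core of the HIF element, on either strand, where ACGTG overlaps the E-box CACGTG.
DDIT4 (chr10:72273674-72273923, plus strand): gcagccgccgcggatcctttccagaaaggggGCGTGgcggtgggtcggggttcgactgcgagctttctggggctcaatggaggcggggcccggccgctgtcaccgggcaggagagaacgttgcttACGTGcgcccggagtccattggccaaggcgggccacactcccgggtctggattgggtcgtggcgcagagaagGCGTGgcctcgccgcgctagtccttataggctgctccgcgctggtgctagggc
BHLHE40 (chr3:4979187-4979436, plus strand): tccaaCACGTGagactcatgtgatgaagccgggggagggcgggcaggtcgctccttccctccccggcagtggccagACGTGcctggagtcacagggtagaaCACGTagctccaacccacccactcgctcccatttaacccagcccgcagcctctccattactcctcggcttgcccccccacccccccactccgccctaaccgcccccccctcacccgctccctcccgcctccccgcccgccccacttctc
CA12 (chr15:63381847-63382096, minus strand): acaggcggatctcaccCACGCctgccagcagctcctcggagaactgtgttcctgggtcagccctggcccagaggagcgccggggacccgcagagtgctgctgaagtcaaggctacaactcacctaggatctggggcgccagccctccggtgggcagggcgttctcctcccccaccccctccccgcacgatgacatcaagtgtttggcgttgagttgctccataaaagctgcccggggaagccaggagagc
ADM (chr11:10304823-10305072, plus strand): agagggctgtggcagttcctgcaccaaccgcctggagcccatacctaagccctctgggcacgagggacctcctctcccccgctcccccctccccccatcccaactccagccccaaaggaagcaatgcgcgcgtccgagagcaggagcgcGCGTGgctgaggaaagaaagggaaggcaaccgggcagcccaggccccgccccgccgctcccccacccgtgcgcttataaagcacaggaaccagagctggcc
CA9 (chr9:35673678-35673927, plus strand): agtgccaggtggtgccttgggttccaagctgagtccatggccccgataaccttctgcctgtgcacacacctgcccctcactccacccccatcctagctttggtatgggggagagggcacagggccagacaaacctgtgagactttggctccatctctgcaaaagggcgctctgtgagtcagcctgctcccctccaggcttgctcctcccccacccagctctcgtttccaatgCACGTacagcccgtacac
P4HA1 (chr10:73096867-73097116, minus strand): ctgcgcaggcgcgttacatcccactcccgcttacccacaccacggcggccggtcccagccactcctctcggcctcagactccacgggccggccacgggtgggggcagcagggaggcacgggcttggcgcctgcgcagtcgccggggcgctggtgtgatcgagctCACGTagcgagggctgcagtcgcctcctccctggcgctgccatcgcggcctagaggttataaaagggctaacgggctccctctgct
P4HA2 (chr5:132227092-132227341, minus strand): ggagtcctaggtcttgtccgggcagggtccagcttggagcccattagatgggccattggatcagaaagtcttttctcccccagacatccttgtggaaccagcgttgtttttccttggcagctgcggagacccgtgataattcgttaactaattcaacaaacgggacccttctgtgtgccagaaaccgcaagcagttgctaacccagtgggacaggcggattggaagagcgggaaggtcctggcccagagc
DDIT4 had 3 matches, BHLHE40 4, CA12, ADM, CA9 and P4HA1 1 each and P4HA2 none, where a CACGTG counts on both strands. Among the 26 genes with 1 start in the RefSeq table, 73.1% held a core in these bases, beside 43.2% of all 35116 starts. Many of the 43 genes were listed because they are HIF targets, so the share is a description, and a match is not a bound site.

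Of the 12 other HIF targets, 1 was called higher and 6 lower in KO, beside 15.5% and 16.6% of all genes tested. In myrAKT, with CA9 left out, 5 of 11 were called higher and 1 lower, beside 12.7% and 17.3%. The median log2 fold changes were -0.67 in KO and 0.29 in myrAKT without CA9, where both comparisons use the same WT libraries. DDIT4, an inhibitor of mTOR induced by stress, was at 69.0, 86.5 and 82.5 CPM in the WT libraries, 23.9, 26.3 and 21.0 CPM in KO1, 28.0, 30.4 and 33.1 CPM in KO2 and 109, 126 and 114 CPM in myrAKT. The pools lay below WT and myrAKT above it, without overlap. The log2 fold change was -1.57 ± 0.117 (SE, edgeR adjusted p = 8.99e-07) for KO and 0.54 ± 0.0750 (SE, edgeR adjusted p = 2.80e-05) for myrAKT. After MK2206 DDIT4 was at 40.1, 38.7 and 40.3 CPM in KO1+MK and 33.0, 36.6 and 40.9 CPM in KO2+MK. KO1+MK lay above every untreated pool library, KO2+MK overlapped KO2, and all stayed below WT. The MK2206 change was 0.52 ± 0.0952 (SE, edgeR adjusted p = 4.80e-04), a call that was lost under upper-quartile normalization (edgeR adjusted p = 0.00102) and when KO1 replicate 1, KO1 replicate 2, KO2 replicate 1, KO1+MK replicate 1, KO1+MK replicate 2, KO1+MK replicate 3, KO2+MK replicate 2 or KO2+MK replicate 3 was left out (log2 fold change 0.48 to 0.53, edgeR adjusted p = 0.00109 to 0.00176).

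VEGFA, the main angiogenic growth factor, was at 201, 237 and 220.4 CPM in the WT libraries, 111, 114 and 103 CPM in KO1, 80.0, 77.6 and 85.3 CPM in KO2 and 261, 278 and 271 CPM in myrAKT. The pools were below WT in every library (log2 fold change -1.22, SE 0.119, edgeR adjusted p = 5.32e-06) and myrAKT above (log2 fold change 0.29, SE 0.0582, edgeR adjusted p = 6.72e-04), where the call was lost with no filter (edgeR adjusted p = 0.00149) and when WT replicate 1, WT replicate 3, myrAKT replicate 2 or myrAKT replicate 3 was left out (log2 fold change 0.23 to 0.30, edgeR adjusted p = 0.00130 to 0.00548). With MK2206 it was at 76.4, 81.7 and 83.5 CPM in KO1+MK and 59.5, 57.6 and 63.0 CPM in KO2+MK, which overlapped the untreated pools, and the log2 fold change of -0.42 ± 0.118 (SE, edgeR adjusted p = 0.0102) was not called. Within each pool the treated libraries were called lower, at -0.42 ± 0.0433 (SE, edgeR adjusted p = 6.92e-06) in KO1 and -0.41 ± 0.0454 (SE, edgeR adjusted p = 3.90e-06) in KO2.

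BHLHE40, a transcriptional repressor, was at 166, 190.2 and 199 CPM in the WT libraries, 76.7, 80.0 and 78.2 CPM in KO1, 84.4, 86.4 and 92.1 CPM in KO2 and 183, 193 and 194 CPM in myrAKT. Its KO libraries lay below WT (log2 fold change -1.18, SE 0.0646, edgeR adjusted p = 1.61e-07), and myrAKT overlapped WT (log2 fold change 0.032, SE 0.0616, edgeR adjusted p = 0.686). With MK2206 it was at 168, 151 and 148 CPM in KO1+MK and 131, 133 and 146 CPM in KO2+MK, above every untreated pool library (log2 fold change 0.84, SE 0.0619, edgeR adjusted p = 1.76e-07). NDRG1, a stress-induced growth regulator, was at 258, 377 and 350.1 CPM in the WT libraries, 187, 173 and 197 CPM in KO1, 223, 208 and 226 CPM in KO2 and 456, 486 and 498 CPM in myrAKT. WT replicate 1 was the lowest WT library, the pools lay below all WT libraries (log2 fold change -0.72, SE 0.110, edgeR adjusted p = 1.67e-04) and myrAKT above them (log2 fold change 0.54, SE 0.102, edgeR adjusted p = 4.60e-04). Under MK2206 NDRG1 was at 256, 267 and 286 CPM in KO1+MK and 284, 290.4 and 318 CPM in KO2+MK, above the untreated pools (log2 fold change 0.51, SE 0.0680, edgeR adjusted p = 3.14e-05). The KO call of NDRG1 was lost when WT replicate 2 or WT replicate 3 was left out (log2 fold change -0.65 to -0.59, edgeR adjusted p = 0.00235 to 0.00239). Its myrAKT call was lost with DESeq2 (DESeq2 adjusted p = 0.00326) and when WT replicate 3, myrAKT replicate 1 or myrAKT replicate 2 was left out (log2 fold change 0.52 to 0.59, edgeR adjusted p = 0.00111 to 0.00305).

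ADM, the vasodilator peptide adrenomedullin, went the other way. It was at 34.4, 40.9 and 38.3 CPM in the WT libraries, 67.7, 57.0 and 75.7 CPM in KO1, 80.2, 75.4 and 74.3 CPM in KO2 and 33.5, 32.3 and 32.2 CPM in myrAKT. Every pool library was above WT (log2 fold change 0.90, SE 0.0985, edgeR adjusted p = 1.30e-05), the largest rise of the 43 genes in KO, and myrAKT was below WT without a call (log2 fold change -0.22, SE 0.0627, edgeR adjusted p = 0.00895). With MK2206 ADM was at 36.1, 40.9 and 44.2 CPM in KO1+MK and 55.2, 53.1 and 50.9 CPM in KO2+MK, under all untreated pool libraries (log2 fold change -0.60, SE 0.104, edgeR adjusted p = 3.24e-04). That call was lost when KO1 replicate 3 or KO1+MK replicate 2 was left out (log2 fold change -0.58 to -0.56, edgeR adjusted p = 0.00101 to 0.00103). CA12, a carbonic anhydrase of the cell surface, was at 61.7, 65.4 and 65.0 CPM in the WT libraries, 34.7, 37.7 and 31.8 CPM in KO1, 29.8, 29.8 and 29.9 CPM in KO2 and 42.6, 43.6 and 45.9 CPM in myrAKT. It was below WT both in the pools (log2 fold change -1.01, SE 0.0722, edgeR adjusted p = 6.86e-07) and in myrAKT (log2 fold change -0.54, SE 0.0494, edgeR adjusted p = 4.20e-07), and was not called under MK2206, at 28.2, 33.5 and 33.2 CPM in KO1+MK and 28.2, 27.1 and 26.1 CPM in KO2+MK.

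CA9, a hypoxia-induced carbonic anhydrase, was nearly silent except in myrAKT. It was at 0.235, 0.247 and 0.323 CPM in the WT libraries, 0.158, 0.0812 and 0.111 CPM in KO1, 0.115, 0.180 and 0.218 CPM in KO2 and 1.60, 1.57 and 1.504 CPM in myrAKT, and its counts were between 1 and 6 per MK2206-treated library. The myrAKT libraries lay above all others, and since CA9 passed the filter on low counts through them alone, no test of this difference is given. Exons of ARHGEF39 on the opposite strand cover 35.7% of the CA9 exon bases, and the strand setting of the counting is not given in the sources used here, so this value is uncertain. The same holds for ANKRD37, with 40.3% shared with UFSP2, which was called in none of the 3 comparisons. BHLHE40 shares 12.8% of its exon bases with BHLHE40-AS1, BNIP3L 7.95% with PNMA2 and PFKM 7.12% with SENP1, all on the opposite strand.

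P4HA1 and P4HA2, subunits of the collagen prolyl hydroxylases, lay on opposite sides of WT in the pools and in myrAKT. P4HA1 was at 154, 183 and 180.3 CPM in the WT libraries, 115, 112 and 123 CPM in KO1, 142, 142 and 145 CPM in KO2 and 268, 251 and 262 CPM in myrAKT, and at 118, 126 and 126 CPM in KO1+MK and 131, 134 and 147 CPM in KO2+MK. P4HA2 was at 73.4, 78.4 and 78.0 CPM in the WT libraries, 45.4, 47.8 and 49.3 CPM in KO1, 53.8, 51.2 and 56.9 CPM in KO2 and 111, 116 and 112 CPM in myrAKT, and at 56.0, 55.5 and 55.3 CPM in KO1+MK and 57.0, 56.2 and 58.8 CPM in KO2+MK. Both lay above WT in myrAKT, at 0.59 ± 0.0622 (SE, edgeR adjusted p = 2.00e-06) and 0.55 ± 0.0444 (SE, edgeR adjusted p = 1.27e-07), and below WT in every pool library. In KO the call was made for P4HA2 (log2 fold change -0.61, SE 0.0628, edgeR adjusted p = 7.99e-06) and missed for P4HA1 (log2 fold change -0.43, SE 0.0898, edgeR adjusted p = 0.00156). Taken by pool, P4HA1 was called lower than WT in both KO1 and KO2. Neither was called under MK2206 over both pools, and P4HA2 was called higher in KO1 (log2 fold change 0.25, SE 0.0430, edgeR adjusted p = 4.11e-04). The mitophagy receptors BNIP3 and BNIP3L were called in none of the 3 comparisons. BNIP3L still lay below WT in every untreated pool library and above WT in every myrAKT library. By pool, 8 of the 12 other HIF targets were called lower than WT in KO1 (66.7% beside 21.3% of all genes tested). In KO2 there were also 8 (66.7% beside 22.2%), and BNIP3L was among them in both pools. Pseudogenes held 1.49% of the joint counts of BNIP3.

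**Figure D4:**
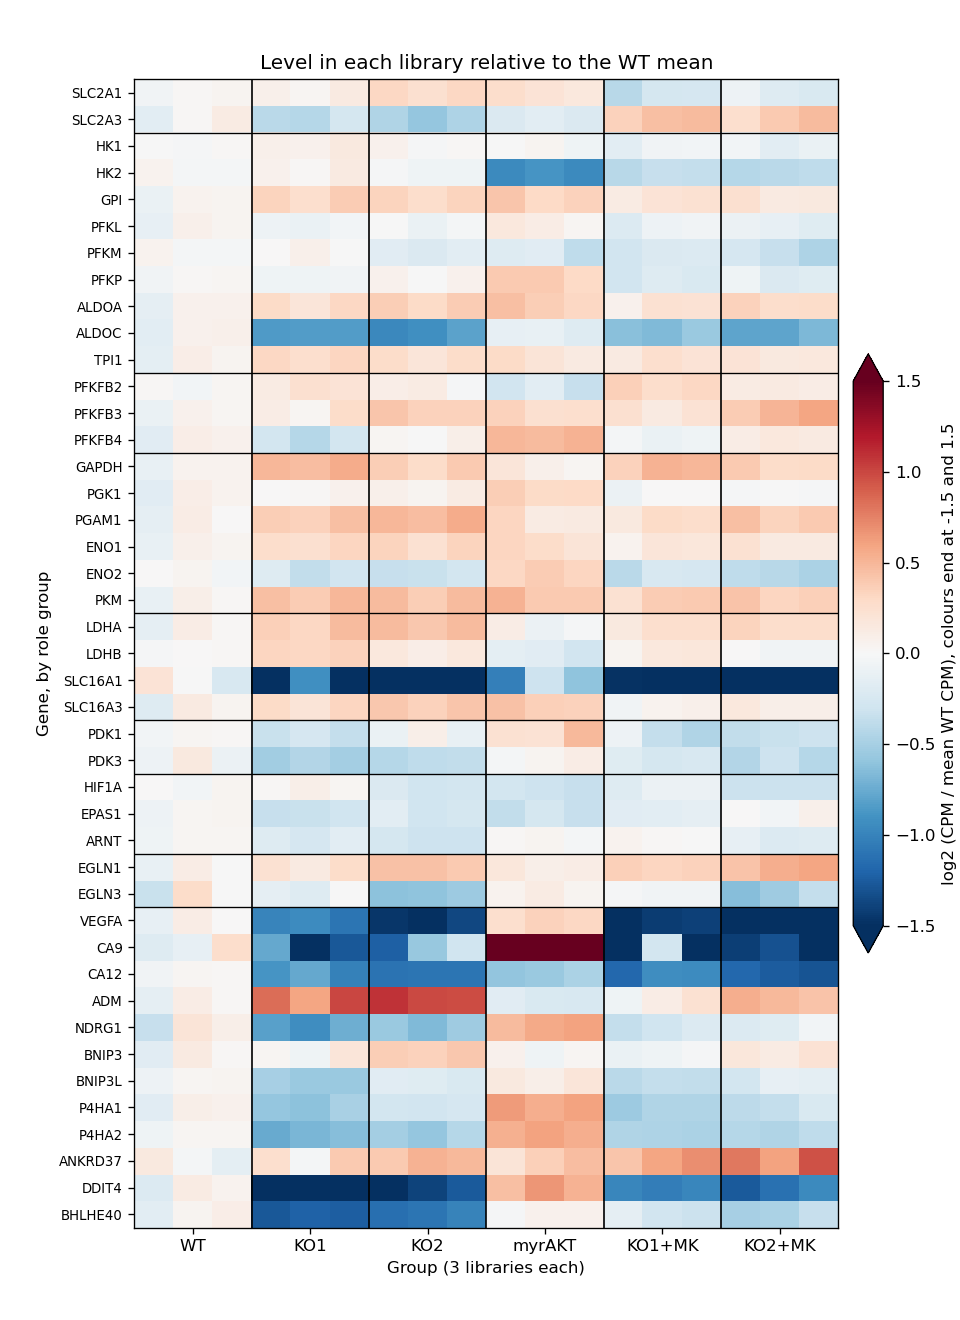
Level of each of the 43 genes in each of the 18 libraries, as log2 of CPM over the mean WT CPM, with genes ordered by role group and colours ending at 1.5 in either direction. SLC16A1 and VEGFA are low in all pool libraries, CA9 is high in myrAKT, and HK2 is low in myrAKT at 166, 175 and 166 CPM.

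Taken by pool, KO1 against WT gave 10 genes higher beside 20.5% of all genes tested and 17 lower beside 21.3%. KO2 against WT gave 13 higher beside 20.8% and 18 lower beside 22.2%. As shares of the 43, these were 23.3% and 39.5% for KO1, and 30.2% and 41.9% for KO2. No gene was called in opposite directions in the pools, which share their WT libraries. Of the markers, ERBB2 (log2 fold change -0.19), PECAM1 (-1.08) and CDH5 (-2.62) were called lower and VIM (0.17) higher in KO1 against WT. In KO2 against WT, EPCAM (log2 fold change -0.48) and CDH5 (-1.52) were called lower and VIM (0.27) and AXL (0.24) higher. The part of these markers in the counts by pool was not tested. Tested directly, KO1 against KO2 gave 5 genes higher (11.6% beside 7.06%) and 10 lower (23.3% beside 5.54%), all with a fold change under 1.5. Among these were VEGFA (log2 fold change 0.42, SE 0.0417, edgeR adjusted p = 7.36e-07), HIF1A (log2 fold change 0.29, SE 0.0334, edgeR adjusted p = 3.89e-06), DDIT4 (log2 fold change -0.37, SE 0.0711, edgeR adjusted p = 6.48e-04), PFKFB3 (log2 fold change -0.24, SE 0.0462, edgeR adjusted p = 6.09e-04) and SLC2A1 (log2 fold change -0.21, SE 0.0327, edgeR adjusted p = 7.96e-05). HIF1A was called lower than WT in KO2 (log2 fold change -0.27, SE 0.0373, edgeR adjusted p = 2.96e-05) and not in KO1 (log2 fold change 0.024, SE 0.0342, edgeR adjusted p = 0.554). Without KO1 replicate 1 the direct test called 3 higher (6.98% beside 4.45%) and 4 lower (9.30% beside 3.00%), and without KO2 replicate 1 it called 3 (6.98% beside 4.97%) and 6 (14.0% beside 3.56%). The marker CD44 (log2 fold change 0.17) was called higher, and AXL (-0.25) and PECAM1 (-1.22) lower, in KO1 than in KO2. Their part in these counts was not tested either.

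MK2206 in KO1 gave 11 genes higher (25.6% beside 10.9% of all genes tested) and 6 lower (14.0% beside 8.26%). In KO2 there were 4 higher (9.30% beside 13.1%) and 6 lower (14.0% beside 8.78%). Among the markers, AXL was called lower in KO1 (log2 fold change -0.23) and GATA3 lower in KO2 (log2 fold change -1.04). Their part in these counts was not tested. Under upper-quartile normalization there were 7 higher and 9 lower in KO1, so that higher ones made up 43.8% of the calls in place of 64.7%, beside 47.9% in place of 56.9% over all genes. In KO2 the count of higher calls was the same, 4, with 10 lower, a share of 28.6% in place of 40.0%, beside 47.5% in place of 59.9% over all genes. Without KO1 replicate 1 or 2, or KO1+MK replicate 2 or 3, 4 were higher in KO1 (9.30% beside 6.51% to 8.73% of all genes), a share near that of all genes, and 6 without KO1 replicate 3 (14.0% beside 7.36%). A test of the difference in the MK2206 effect called none of the 43 genes with edgeR, beside 0% of all genes called higher and 0.0128% called lower. At an unadjusted p under 0.05 there were 8 of the 43 (18.6%) beside 8.03% of all genes tested, and DESeq2 called 0. DDIT4, for example, was called in KO1 (log2 fold change 0.77, SE 0.0678, edgeR adjusted p = 1.78e-06) and not in KO2 (log2 fold change 0.29, SE 0.0745, edgeR adjusted p = 0.00496), with a difference of 0.47 ± 0.113 (SE, edgeR adjusted p = 0.122). BHLHE40 was called in both, at 1.02 ± 0.0506 (SE, edgeR adjusted p = 1.61e-08) and 0.66 ± 0.0459 (SE, edgeR adjusted p = 4.95e-08).

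Another 84 genes of the same pathways were listed, of which 71 passed the filter. In KO against WT 6 were called higher (8.45% beside 15.5% of all genes tested) and 14 lower (19.7% beside 16.6%), in myrAKT against WT 11 higher (15.5% beside 12.7%) and 16 lower (22.5% beside 17.3%), and in MK2206 against untreated 9 higher (12.7% beside 12.8%) and 5 lower (7.04% beside 8.75%). The counts that follow stand beside these shares of all genes. Of the 27 further HIF targets tested, none was higher and 7 were lower in KO, and 7 were higher and 5 lower in myrAKT. Of the 17 further glycolysis genes, 3 were higher and 3 lower in KO, 1 and 3 in myrAKT, and 3 and 1 with MK2206. The 11 genes of pyruvate entry gave 1 higher and 2 lower in KO, 3 and 4 in myrAKT and 1 and 1 with MK2206. The 7 pentose phosphate genes gave 0 higher and 1 lower in KO, 0 and 2 in myrAKT and no call with MK2206. The 9 genes of HIF regulation gave 2 higher and 1 lower, 0 and 2, and 2 and 2 in the same order. With MK2206 the further HIF targets gave 3 higher and 1 lower.

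The largest called changes of these genes included a pair with opposite signs in KO against WT and MK2206 against untreated. Both comparisons use the same untreated pool libraries, and the pair was picked by its changes there. The opposite signs are therefore a description. PDK4, a pyruvate dehydrogenase kinase, was at 9.54, 11.3 and 11.04 CPM in WT, 2.11, 1.76 and 1.83 CPM in KO1 and 3.32, 3.22 and 3.24 CPM in KO2 (log2 fold change -2.06, SE 0.190, edgeR adjusted p = 3.83e-06), and at 5.12, 5.42 and 4.54 CPM in KO1+MK and 7.10, 6.95 and 7.37 CPM in KO2+MK (log2 fold change 1.26, SE 0.188, edgeR adjusted p = 8.49e-05). CITED2, which competes with HIF1A for a coactivator, was at 89.2, 86.9 and 89.0 CPM in WT, 138, 129 and 138 CPM in KO1 and 123, 118 and 116 CPM in KO2 (log2 fold change 0.51, SE 0.0596, edgeR adjusted p = 2.25e-05), and at 69.7, 80.3 and 81.4 CPM in KO1+MK and 72.8, 70.1 and 68.3 CPM in KO2+MK (log2 fold change -0.76, SE 0.0552, edgeR adjusted p = 1.44e-07). For both genes the pools lay wholly on 1 side of WT, and the treated pools on the opposite side of the untreated ones. HKDC1, a hexokinase, was called higher in KO (log2 fold change 0.45, SE 0.0595, edgeR adjusted p = 5.60e-05) and the glucose transporter SLC2A10 lower (log2 fold change -1.52, SE 0.133, edgeR adjusted p = 2.46e-06). In myrAKT the collagen lysyl hydroxylase PLOD1 was at 311, 314 and 296 CPM against 161, 182 and 181 CPM in WT (log2 fold change 0.81, SE 0.0529, edgeR adjusted p = 1.58e-08), and PPFIA4, a liprin, was also higher (log2 fold change 0.88, SE 0.0927, edgeR adjusted p = 1.88e-06). The insulin-responsive glucose transporter SLC2A4 was lower in myrAKT (log2 fold change -2.09, SE 0.182, edgeR adjusted p = 2.74e-07). With MK2206 the nuclear receptor RORA was higher (log2 fold change 0.95, SE 0.110, edgeR adjusted p = 8.59e-06) and STC2, a stanniocalcin, lower (log2 fold change -0.67, SE 0.125, edgeR adjusted p = 5.59e-04), the latter a call that was lost when KO1 replicate 1, KO1 replicate 2, KO2 replicate 1, KO2 replicate 2, KO2 replicate 3, KO1+MK replicate 1, KO1+MK replicate 3, KO2+MK replicate 2 or KO2+MK replicate 3 was left out (log2 fold change -0.68 to -0.62, edgeR adjusted p = 0.00118 to 0.00179).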

How the data were processed

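RNA was measured in 18 libraries made with ribosomal RNA depletion. The authors trimmed reads with Trim Galore, aligned them to hg38 with HISAT2 and deposited a table of featureCounts read counts per gene, made with FastQC and MultiQC as quality reports. Versions, annotation, strand setting and the rule for reads shared by genes are not given in the sources used here. Groups came from the sample titles. Symbols and exon lengths came from GENCODE release 44, which covers 56948 of the 57448 gene rows.

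The 15587 genes that reached 1 CPM in 3 or more of 18 libraries entered the tests, made with edgeR 4.0.16 (quasi-likelihood test, TMM, two-sided, Benjamini-Hochberg adjustment over all genes tested) in R 4.3.3, with only the groups compared in each fit, and called at an adjusted p of at most 0.001. The pipeline was tested on simulated data. SE is the size of the log2 fold change over the root of F. Alternatives were DESeq2 1.42.0, RLE, upper-quartile and total scaling, no filter, all libraries in 1 fit, the replicate block, a fold change of at least 1.5, the pool as covariate and leaving out each library. Python 3.11.15, pandas 2.3.3, numpy 2.4.6 and matplotlib 3.10.9 were also used. Counts between 23419198 and 39319910 per library set the precision.

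The members and lists were chosen with earlier results of these data known. Values in each library are given for 7 set genes and, in each of 3 comparisons, the 5 called members with the largest rise and the 5 with the largest fall, or fewer where fewer were called (4 falls under MK2206). Of the other pathway genes, the 2 called with the largest rise and the 2 with the largest fall in each are named, except for a gene that is counted in the totals but not reported here. GPS2, AKT1 and the markers were fixed separately, and further members are given by role group.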

Additional observations from a re-analysis of the deposited data

Results flagged for a closer look

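The highest and lowest of 6 libraries, the untreated pools or the treated pools, were compared with the rest for each of the 43 genes, 86 sets in all. In 3 sets 1 library lay far from the others. Chance gives about 1 in 20 sets only where all 6 libraries belong to 1 group. Each set joined libraries of both pools, so the count of sets is not compared with that rate. The gap to the nearest library, as a share of the whole range, was 0.6374 for SLC16A1, where KO1 replicate 2 (2.76 CPM) was the highest of the untreated pools. It was 0.805 for PGK1, where KO1+MK replicate 1 (426 CPM) was the lowest of the treated pools. It was 0.6514 for PDK1, where the same library (35.2 CPM) was the highest. KO1+MK replicate 1 was also the shallowest library, with 23419198 reads, and the part of depth in these values was not tested.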

How the results depend on the processing

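For the 60 called values of named genes in KO against WT, myrAKT against WT and MK2206 against untreated, direction was kept under each alternative that gave a value, and calls given by pool, and CA9 in myrAKT, which had to differ through the filter, were not followed in this way. Of 943 values of named genes under the alternatives without a minimum fold change, 850 stayed past the threshold and 93 did not, and 36 calls were lost with a fold change of at least 1.5. Of 284 counts of calls, 229 stayed within 1.5 times. Where settings below moved a count, the cause was not tested, except that a minimum fold change removes small changes and leaving out a library leaves fewer samples.

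Shares are of the 43 genes beside all genes tested. DESeq2 gave 12 higher (27.9% beside 20.7%) in KO against WT, and 9 lower (20.9% beside 13.8%) in MK2206 against untreated, 10 lower (23.3% beside 10.3%) in MK2206 in KO1 and 10 lower (23.3% beside 9.91%) in MK2206 in KO2. With no filter, over 42387 genes and so a larger base for the second share, there were 12 higher (27.9% beside 6.75%) in KO against WT, 11 lower (25.6% beside 5.26%) in MK2206 in KO1, 8 higher (18.6% beside 5.09%) in KO1 against KO2 and 1 higher (2.33% beside 0.0448%) in the difference of the MK2206 effects. With all 18 libraries in 1 fit there were 14 higher (32.6% beside 24.3%) in KO against WT, 9 higher (20.9% beside 18.2%) and 9 lower (20.9% beside 19.0%) in MK2206 against untreated, 7 higher (16.3% beside 11.2%) in MK2206 in KO1, and 2 higher (4.65% beside 5.94%) and 4 lower (9.30% beside 3.59%) in KO1 against KO2. Upper-quartile normalization gave 3 higher (6.98% beside 10.9%) and 8 lower (18.6% beside 11.6%) in MK2206 against untreated, 7 higher (16.3% beside 9.45%) in MK2206 in KO1 and 10 lower (23.3% beside 11.9%) in MK2206 in KO2. The pool as a covariate gave 9 higher (20.9% beside 19.7%) and 10 lower (23.3% beside 16.7%) in MK2206 against untreated. A fold change of at least 1.5 left 1 higher (2.33% beside 4.07%) and 8 lower (18.6% beside 8.59%) in KO against WT, 1 higher (2.33% beside 4.59%) and 8 lower (18.6% beside 9.28%) in KO1 against WT, 1 higher (2.33% beside 5.56%) and 8 lower (18.6% beside 11.2%) in KO2 against WT, 2 higher (4.65% beside 4.94%) and 1 lower (2.33% beside 8.83%) in myrAKT against WT, 2 higher (4.65% beside 4.50%) and 1 lower (2.33% beside 2.03%) in MK2206 against untreated, 3 higher (6.98% beside 3.30%) and 1 lower (2.33% beside 1.71%) in MK2206 in KO1, 2 higher (4.65% beside 4.90%) and 0 lower (0% beside 2.16%) in MK2206 in KO2 and 0 higher (0% beside 1.87%) and 0 lower (0% beside 0.744%) in KO1 against KO2, where CA9 is 1 of the 2 higher in myrAKT.

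Leaving out each library gave 5 to 9 higher (11.6% to 20.9% beside 11.5% to 16.5%) and 9 to 13 lower (20.9% to 30.2% beside 10.2% to 16.1%) in KO against WT, 7 to 12 higher (16.3% to 27.9% beside 16.1% to 21.3%) and 15 to 18 lower (34.9% to 41.9% beside 16.1% to 21.8%) in KO1 against WT, 10 to 14 higher (23.3% to 32.6% beside 15.5% to 20.6%) and 12 to 18 lower (27.9% to 41.9% beside 17.9% to 23.4%) in KO2 against WT, 9 to 15 higher (20.9% to 34.9% beside 9.07% to 12.1%) and 4 to 6 lower (9.30% to 14.0% beside 13.3% to 16.2%) in myrAKT against WT, 3 to 5 higher (6.98% to 11.6% beside 10.2% to 11.9%) and 2 to 5 lower (4.65% to 11.6% beside 6.88% to 8.71%) in MK2206 against untreated, 4 to 10 higher (9.30% to 23.3% beside 6.51% to 12.3%) and 4 to 9 lower (9.30% to 20.9% beside 4.70% to 10.9%) in MK2206 in KO1, 4 to 6 higher (9.30% to 14.0% beside 8.95% to 14.4%) and 5 to 9 lower (11.6% to 20.9% beside 4.88% to 10.99%) in MK2206 in KO2 and 3 to 5 higher (6.98% to 11.6% beside 4.45% to 6.49%) and 4 to 10 lower (9.30% to 23.3% beside 3.00% to 5.17%) in KO1 against KO2, and 0 in the difference of the MK2206 effects. The higher ones in myrAKT against WT were 8 to 14 without CA9. A single library moved a count over 1.5 times in 4 comparisons: myrAKT replicate 2 (8 higher without CA9) and WT replicate 3 (9 higher without CA9) in myrAKT against WT, and, as given with those results, KO1 and treated libraries under MK2206, and KO1 replicate 1 and KO2 replicate 1 between the pools.

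With the replicate block, MK2206 against untreated gave 3 higher (6.98% beside 10.4%) and 2 lower (4.65% beside 6.50%), and ADM (edgeR adjusted p = 0.00119), SLC16A3 (edgeR adjusted p = 0.00120), DDIT4 (edgeR adjusted p = 0.00146) and EPAS1 (edgeR adjusted p = 0.00227) lost their calls, as did PFKM (edgeR adjusted p = 0.00105) and PGK1 (edgeR adjusted p = 0.00122) in myrAKT and ARNT (edgeR adjusted p = 0.00176) and ENO1 (edgeR adjusted p = 0.00144) in KO. The numbers did not pair the samples: 12 of 45 same-number correlations of deviations were over 0.1 (-0.52 to 0.30), and in 28 of 90 checks a sample correlated best with its own number. KO2 replicate 2, myrAKT replicate 3 and KO1+MK replicate 1 deviated together, with correlations of 0.54 to 0.59. The cause of this was not tested. Few counts limit CA9 and SLC16A1.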
